A study of Mus musculus with 6 samples.

Results

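The genes described here encode kinases, adaptors, phospholipases, lipid kinases and phosphatases that act in or next to the signalling pathway of the kinase Syk. They were a list of 34 named genes, of 18193 genes for which the array carried a probe set annotated with exactly 1 gene symbol. Each gene was read from 1 probe set, the one with the highest mean over all 6 arrays, so the choice did not use the difference between the groups. All 34 passed the filter on dim signals used for testing. RNA of 6 primary mouse microglial cultures had been hybridised to 1 single-colour oligonucleotide array each. Of these, 3 cultures were labelled Dap12-deficient and 3 wild type. Dap12, encoded by Tyrobp, is the adaptor through which receptors such as Trem2 engage Syk, and the comparison asks how transcripts of microglia differ when it is missing. Strain, age and sex of the animals, the culture conditions, the extent of the deletion and the donors of each culture are, in the sources used here, not given. The p-values therefore measure the spread between these cultures, which may be technical in part.

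Receptors that carry or borrow an immunoreceptor tyrosine-based activation motif (ITAM) are phosphorylated by Src family kinases such as Fgr and Src. Syk, or in T cells and natural killer cells its relative Zap70, docks on the paired phosphotyrosines through tandem SH2 domains and becomes active. Scaffolds (Lat, Lat2, Lcp2, Blnk, Grb2, Sh3bp2, Pik3ap1) then gather phospholipase C gamma, Vav exchange factors, Tec kinases and phosphoinositide 3-kinase. Diacylglycerol made by the phospholipase recruits protein kinase C and Rasgrp3, and a complex of Bcl10 and the paracaspase Malt1 carries the signal to NF-kB. Opposing enzymes end it: the phosphatases SHP-1 (Ptpn6) and SHIP-1 (Inpp5d), the Dok adaptors and the ubiquitin ligases Cbl and Cblb. In microglia this route serves phagocytosis, survival and migration.

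The targeted gene bore out the labels. Tyrobp gave signals of 5396 to 7271 on wild-type arrays and 96.2 to 125 on Dap12-deficient arrays, and its log2 difference was -5.64 (SE 0.20, adjusted p = 8.14e-07 by limma). Signals are linear intensities scaled to a common target per array, and all differences are of log2(signal + 16), Dap12-deficient minus wild type. No cell type marker passed the adjusted threshold, and the summed signals of oligodendrocyte, astrocyte and microglia markers overlapped between the groups. Those of T cell and of mast cell markers, given below, did not overlap. Of 9 tested oligodendrocyte markers 9 were lower (median -1.35), and 8 had an unadjusted p under 0.05 (88.9%, against 9.63% of all genes). Their summed signal was 5607 to 9001 on wild-type and 1540 to 6819 on Dap12-deficient arrays (1539.8 at the lowest). Of 8 astrocyte markers 7 were higher, with sums of 505 to 940 (939.7) and 451 to 1408. Such a p was found for 3 of them (37.5%), 2 higher and 1 lower. Of 11 microglia markers 10 were lower, with sums of 24344 to 34743 and 20641 to 28756. The mean log2 signal of 3 Y-linked genes was 7.10 to 7.36 on wild-type and 5.31 to 6.19 on Dap12-deficient arrays. Control probe sets gave 3' to 5' signal ratios for Gapdh of 3.21 to 3.39 in wild type and 2.52 to 3.58 in Dap12-deficient cultures, and for Actb of 2.46 to 3.94 and 1.81 to 3.20.

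None of the 34 Syk pathway genes passed the threshold of an adjusted p under 0.05 over all 27022 probe sets tested, where 2 probe sets (0.0074%) did. Without Dap12-deficient array 2 there were 172 such probe sets and still no member (lowest adjusted p of a member 0.121, for Malt1), and without array 1 there were 15. At an unadjusted p under 0.05 there were 5 of the 34 (14.7%), against 9.63% of all 12875 genes tested. Without wild-type array 2 there were 2. The 5 were Malt1 and Lat, higher in Dap12-deficient cultures, and Rasgrp3, Ptpn6 and Btk, lower. By direction this was 2 against a background of 4.76% and 3 against 4.87%. The arrays of the groups did not overlap for 8 members (23.5%), against 16.4% of all genes: 3 lay higher (background 7.54%) and 5 lower (8.85%). Both shares were near enough to the background that they are no result about the pathway. For 29 of the 34 genes (85.3%) the difference was under 0.5 in size, as it was for 89.6% of all genes. The median was -0.11 over the 34 and -0.03 over all genes.

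**Figure D1:**
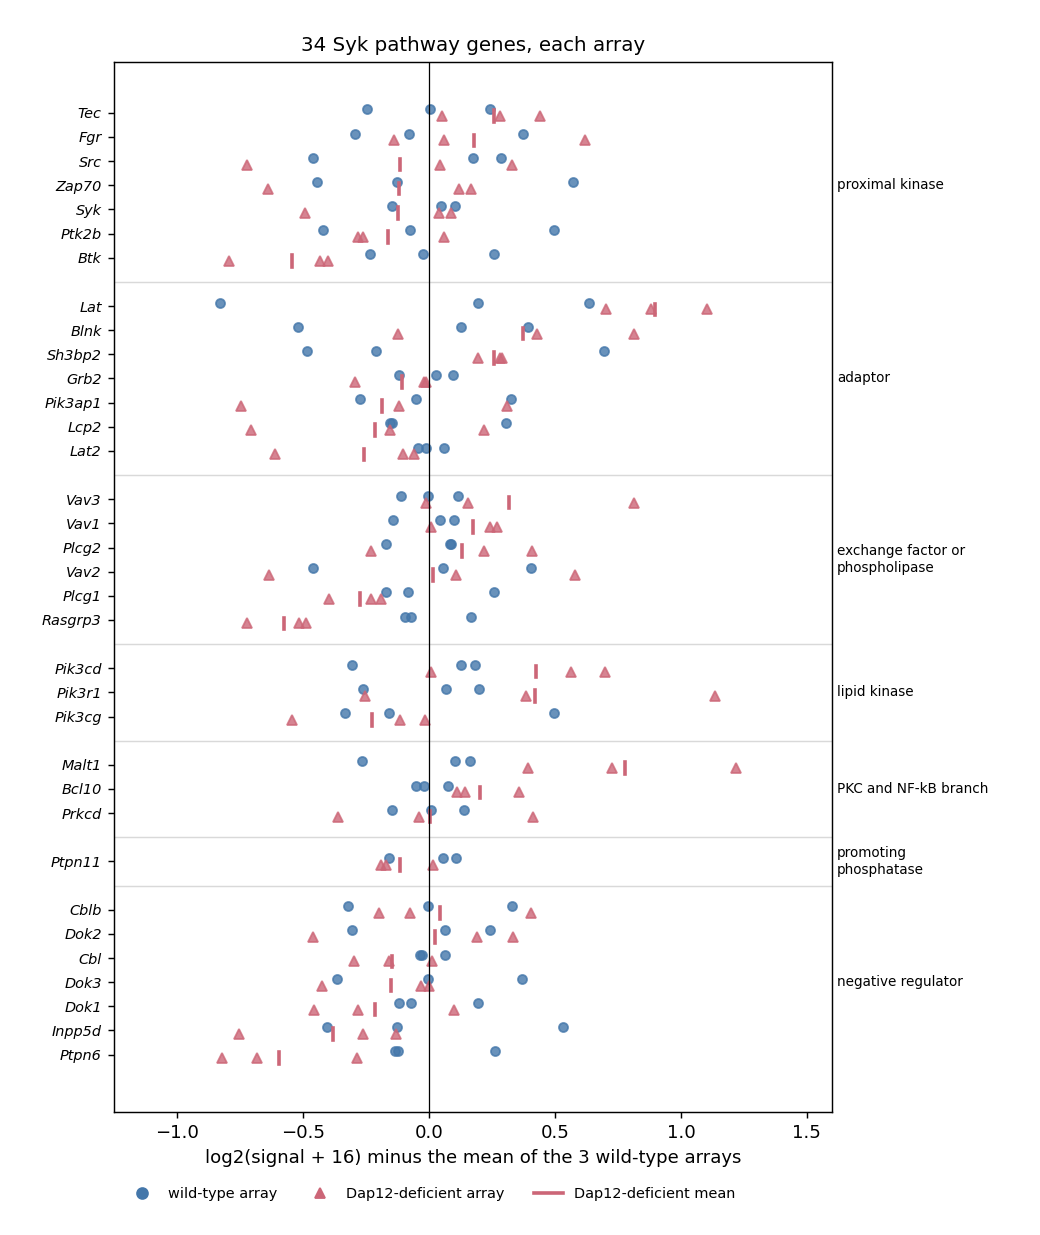
Each row is 1 of the 34 genes, grouped by role; the x axis is log2(signal + 16) minus the mean of the 3 wild-type arrays. Circles are wild-type arrays, triangles Dap12-deficient arrays and vertical bars the Dap12-deficient mean; in most rows the triangles fall among the circles, while those of Malt1 and Lat lie to the right and those of Rasgrp3, Ptpn6 and Btk to the left.

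Scaling bears on these directions. With signals as deposited 16 members were higher and 18 lower (47.1% higher, against 45.2% of all genes). With each array set to a common median only 9 were higher (26.5%, against 23.9%). The groups then did not overlap for 9 members (26.5%, against 26.4% of all genes), all of them lower. These were Syk, Btk, Lat2, Cbl, Plcg1, Rasgrp3, Grb2, Ptpn11 and Ptpn6. The median difference of all genes moved from -0.03 to -0.23 with that scaling. Relative to that median of all genes, 16 members lay above and 18 below as deposited, 15 and 19 with a common median, and 15 and 19 after quantile normalization.

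Among the proximal kinases, Syk itself was measured at 533, 554 and 465 on the 3 wild-type arrays and at 363, 549 and 530.3 on the Dap12-deficient arrays. A single Dap12-deficient array was thus low, and the others lay among the wild-type values. The log2 difference was -0.12 (SE 0.21, 95% interval -0.59 to 0.35, adjusted p = 0.866), and it was 0.06 without Dap12-deficient replicate 1. With a common median the Syk difference was -0.37 (SE 0.25, unadjusted p = 0.16), and its groups did not overlap. Zap70 gave 112, 192 and 86.7 in wild type against 136, 141 and 73.7 in Dap12-deficient cultures, and its groups overlapped throughout (-0.12, SE 0.30). These values rest on a single probe set. The other probe sets of Zap70 were below the filter, at wild-type means of 3.43 and 1.955 and Dap12-deficient means of 4.23 and 2.057. Zap70 marks T and natural killer cells. The T cell markers Cd3e, Cd3g, Cd3d and Cd2 were below the filter, at 19.5 or less on every array. The 3 tested T cell markers had differences of 0.22 for Cd28, 0.025 for Cd8a and 0.51 for Thy1, and their part in the Zap70 value was not tested. Thy1 is dim (means of 5.12 and 14.3). It passed the filter only through the Dap12-deficient arrays, so its direction was set by the filter.

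Btk, a Tec family kinase that phosphorylates phospholipase C gamma, was the proximal kinase with the smallest p. Its only probe set gave 342, 278 and 239 in wild type against 206, 211 and 157 in Dap12-deficient cultures. Every Dap12-deficient array lay under every wild-type array, by a narrow margin. The mean signal was 1.5-fold lower, 287 ± 52.3 against 191 ± 30.0 (SD, n = 3 each), and the log2 difference was -0.54 (SE 0.21, unadjusted p = 0.0271, adjusted p = 0.414), lower in 3 of 3 arrays. It was -0.41 without wild-type replicate 1, -0.56 without wild-type replicate 2 and -0.42 without Dap12-deficient replicate 3, each at an unadjusted p above 0.05. Microglia markers were lower in the same cultures (median -0.35 over 11 genes), and their part in this difference was not tested. The same holds for the other genes given here as lower, among them Rasgrp3, Ptpn6, Inpp5d and Sla. In such bulk RNA, fewer cells of a type and less RNA per cell cannot be told apart. The related kinase Tec had a difference of the other sign, 0.26 (SE 0.20, adjusted p = 0.671), with 661 ± 114 and 792 ± 108. Fgr and Src, the Src family members, were dim, at means of 24.0 and 29.6 for Fgr and 31.8 and 29.0 for Src, with differences of 0.18 (SE 0.25) and -0.12 (SE 0.30). Ptk2b, the focal adhesion relative Pyk2 that links calcium to the cytoskeleton, had -0.16 (SE 0.25).

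The adaptors held the widest spread between arrays. Lat, the transmembrane scaffold of T cell and mast cell signalling, gave 33.2, 1.86 and 20.3 in wild type against 35.7, 52.1 and 42.4 in Dap12-deficient cultures. These are dim signals, and wild-type array 2 was close to 0. The groups did not overlap, although wild-type array 1 nearly reached the lowest Dap12-deficient array. The mean was 2.35-fold higher (18.5 ± 15.8 against 43.4 ± 8.27, SD, n = 3 each), and the log2 difference was 0.90 (SE 0.33, unadjusted p = 0.0197, adjusted p = 0.385), higher in 3 of 3 arrays. It was 0.48 without wild-type replicate 2 (unadjusted p = 0.0750), 0.79 without Dap12-deficient replicate 2 (unadjusted p = 0.0558), 0.40 with a pseudocount of 64 and 1.78 with a pseudocount of 1. With a common median it was 0.73 (SE 0.34, unadjusted p = 0.054). The groups overlapped for Lat with that scaling and after quantile normalization. The summed signal of 7 T cell markers was 284 to 305 in wild type and 317 to 409 in Dap12-deficient cultures. Most of it came from Cd28 (means of 267 and 314), and the defining Cd3 genes were below the filter. Mast cell markers had 5 of 6 members below the filter, all but Kit. Their sums were 38.9 to 43.7 and 56.5 to 81.0, and the part of either cell type in the Lat value was not tested.

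Lat2, the Lat-like scaffold of B cells and myeloid cells also called NTAL, gave 85.8, 93.5 and 88.1 in wild type against 84.8, 81.8 and 52.8 in Dap12-deficient cultures. The groups just failed to touch, and only Dap12-deficient array 3 stood well apart (-0.26, SE 0.21, adjusted p = 0.680). Blnk, the linker of Syk to phospholipase C gamma, had the reverse sign at 0.37 (SE 0.29) with 1725 ± 525 and 2242 ± 708 (SD, n = 3 each). Its arrays overlapped. Lcp2, the SLP-76 scaffold that holds phospholipase C gamma and Vav, had -0.22 (SE 0.26) and Pik3ap1, the BCAP adaptor that recruits phosphoinositide 3-kinase, -0.19 (SE 0.28). For both, Dap12-deficient array 3 was the lowest of all 6, at 162 for Lcp2 and 217 for Pik3ap1. Grb2, the adaptor to Ras exchange factors, differed little (-0.11, SE 0.18, 95% interval -0.51 to 0.30). Sh3bp2, an adaptor that binds Syk and phospholipase C gamma, had 0.26 (SE 0.28). Its wild-type arrays ranged from 178 to 425 around Dap12-deficient values of 295.7 to 317.

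Rasgrp3, a diacylglycerol-responsive exchange factor for Ras and Rap, had the smallest p of all 34 genes. Its brighter probe set gave 1516, 1795 and 1493 in wild type against 959, 1109 and 1132 in Dap12-deficient cultures. The gap between the groups was wider than the range within the Dap12-deficient group. Means were 1601 ± 168 and 1067 ± 93.6 (SD, n = 3 each), 1.5-fold lower, and the log2 difference was -0.58 (SE 0.18, unadjusted p = 0.00816, adjusted p = 0.337), lower in 3 of 3 arrays. The unadjusted p stayed under 0.05 without any 1 of the 6 arrays (-0.62 to -0.49). With a term for sex-linked signal the difference was -0.15 (SE 0.51), and the dimmer probe set gave -0.21 (SE 0.22).

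Transcripts of the phospholipases and Vav proteins had differences between -0.27 and 0.32 on their brightest probe sets. Plcg2, the phospholipase C gamma of myeloid cells and B cells, gave 1096, 1091 and 913 in wild type against 875, 1372 and 1202 in Dap12-deficient cultures. Its Dap12-deficient arrays reached both below and above wild type (0.13, SE 0.21, 95% interval -0.33 to 0.60). Plcg1, the more widely expressed form, gave 83.5, 89.8 and 118 against 69.1, 79.7 and 82.3. Those groups did not overlap, by a gap of about 1 signal unit, and the difference was -0.27 (SE 0.20, adjusted p = 0.643). A second, dim probe set of Plcg1 gave 0.35 (SE 0.17). Vav1, the haematopoietic exchange factor for Rac, had 0.17 (SE 0.18), or -0.08 with a common median. Its other probe set had 0.47 (SE 0.20, unadjusted p = 0.0378), with groups that did not overlap. Vav3 had 0.32 (SE 0.24), with Dap12-deficient array 3 at 243 against 120.4 to 148 on the other 5 arrays. Vav2 had 0.02 (SE 0.32), which turned to -0.19 with a common median.

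Genes of phosphoinositide 3-kinase had differences of both signs. The catalytic subunit gene Pik3cd, the leukocyte p110 delta, had 0.42 (SE 0.24, adjusted p = 0.560), and a second probe set -0.22 (SE 0.24). Of its 6 probe sets only these 2 reached the filter, and the mean of all was -0.013 (SE 0.12). Pik3cg, the p110 gamma subunit acting under G protein-coupled receptors, had -0.23 (SE 0.26). Pik3r1, the regulatory p85 alpha subunit, had 0.42 (SE 0.32), with a value of 386 on Dap12-deficient array 1, while array 2 (137) lay at the wild-type level of 136 to 194. Its other tested probe sets had 0.65 (SE 0.26), 0.22 (SE 0.19) and 0.51 (SE 0.23), and the last passed the filter only through the Dap12-deficient arrays.

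Malt1, the paracaspase that cleaves and scaffolds regulators of NF-kB, was the most marked of the genes toward NF-kB. The brightest of its probe sets gave 53.3, 37.8 and 56.4 in wild type against 90.9, 68.9 and 134 in Dap12-deficient cultures. All Dap12-deficient arrays were above all wild-type arrays, and they differed more among themselves than the wild-type arrays did. Means were 49.2 ± 9.98 and 98.0 ± 33.3 (SD, n = 3 each), 1.99-fold higher, with a log2 difference of 0.78 (SE 0.24, unadjusted p = 0.00907, adjusted p = 0.338), higher in 3 of 3 arrays. A second probe set gave a larger difference, also without overlap. It read 17.0, 15.1 and 17.2 in wild type against 106, 34.1 and 101 in Dap12-deficient cultures, a log2 difference of 1.47 (SE 0.31, unadjusted p = 0.000745, adjusted p = 0.280). The dimmest read 3.33, 1.24 and 1.02 against 28.5, 12.9 and 37.6 (1.20, SE 0.24). It passed the filter of 8.51 on dim signals only through the Dap12-deficient arrays, so its direction was set by the filter and adds no support. On all 3 probe sets Dap12-deficient array 2 was the lowest of its group. These probe sets share the transcript and the arrays, so they are not independent of each other. With a common median the groups overlapped on the brightest probe set, and its difference was 0.57 (SE 0.27, unadjusted p = 0.052). Of 8 astrocyte markers 7 were higher and 1 lower in the same cultures, and their part in the Malt1 difference was not tested.

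Bcl10, the partner that activates Malt1, gave 1046, 1068 and 1142 in wild type against 1394, 1172 and 1199 in Dap12-deficient cultures. The groups did not overlap, but the difference of 0.20 (SE 0.17, adjusted p = 0.695) was small, and it was -0.05 with a common median. The other 3 probe sets of Bcl10 had 0.03 to 0.19, with groups that overlapped. Those with 0.15 and 0.19 are of a kind that can bind several transcripts. Prkcd, the protein kinase C isoform delta, had 0.00 (SE 0.23), with wild-type arrays inside the Dap12-deficient range of 474 to 822. Ptpn11, the phosphatase SHP-2 that mostly promotes receptor signalling through Ras, had -0.12 (SE 0.18, 95% interval -0.51 to 0.28).

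**Figure D2:**
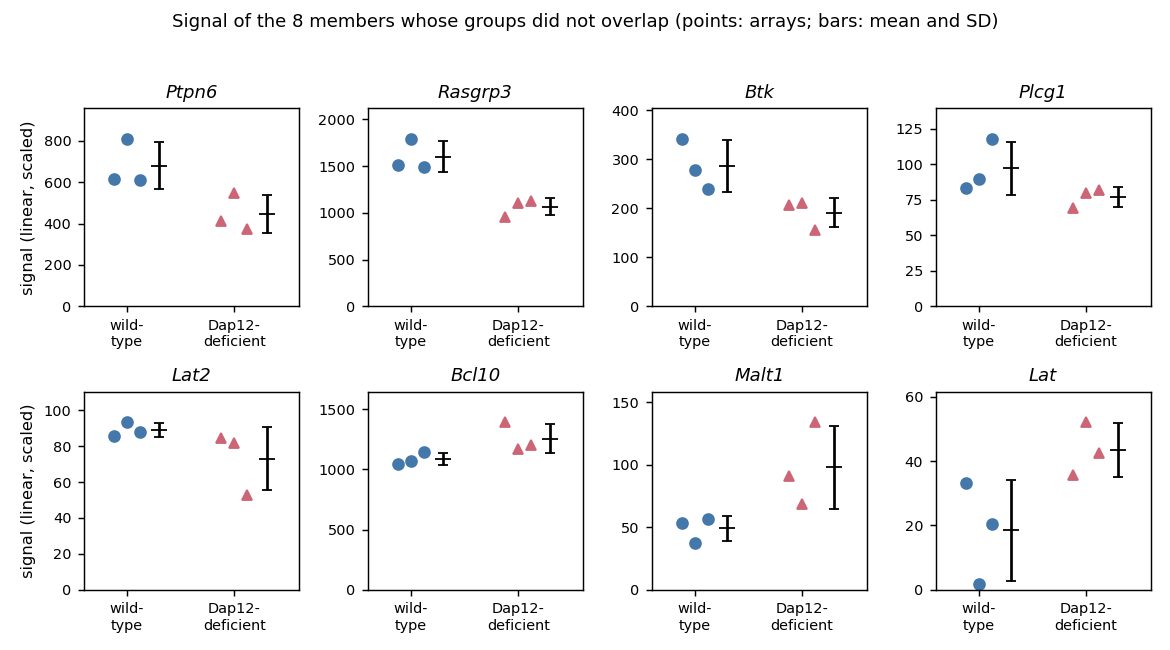
The 8 genes whose wild-type and Dap12-deficient arrays did not overlap are drawn on linear signal axes that start at 0. Points are arrays 1 to 3 of each group from left to right and black bars the mean and SD; the gap between the groups is widest for Rasgrp3 and close to nothing for Lat2, Plcg1 and Bcl10.

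Of the 7 negative regulators, Ptpn6 was the only one at an unadjusted p under 0.05. This gene encodes SHP-1, the phosphatase that inhibitory receptors bring to ITAM signalling. Its brighter probe set gave 617, 810.4 and 612 in wild type against 414, 549 and 374 in Dap12-deficient cultures. All Dap12-deficient arrays were lower. Means were 680 ± 113 and 446 ± 91.8 (679.7 in wild type; SD, n = 3 each), 1.53-fold lower, with a log2 difference of -0.60 (SE 0.21, unadjusted p = 0.0181, adjusted p = 0.375), lower in 3 of 3 arrays. It was -0.47 without wild-type replicate 2 (unadjusted p = 0.0840) and -0.48 without Dap12-deficient replicate 3 (unadjusted p = 0.0580). A second probe set, of a kind that can bind several transcripts, gave 0.16 (SE 0.25), and the mean of both was -0.22 (SE 0.21).

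Inpp5d, the lipid phosphatase SHIP-1 that removes the product of phosphoinositide 3-kinase, gave 684, 1323 and 832 in wild type against 757, 830.0 and 532 in Dap12-deficient cultures. The groups overlapped, with a single high wild-type array and a single low Dap12-deficient array. The difference was -0.38 (SE 0.27, 95% interval -0.97 to 0.21, adjusted p = 0.632), or -0.12 without wild-type replicate 2, and a second probe set gave 0.11 (SE 0.28). The Dok adaptors, which recruit Ras GTPase-activating protein and SHIP-1, were at -0.21 (SE 0.21) for Dok1, -0.15 (SE 0.24) for Dok3 and 0.02 (SE 0.25) for Dok2. Dok2 was dim (means of 20.8 and 21.9) and had -0.12 with a common median. The ubiquitin ligase gene Cbl had -0.15 (SE 0.18) and Cblb 0.04 (SE 0.24, or -0.17 with a common median). Another Cbl probe set stood apart from this: it gave 153, 125 and 70.2 in wild type against 505, 160 and 226 in Dap12-deficient cultures, a difference of 1.14 (SE 0.38, unadjusted p = 0.0129, adjusted p = 0.365). The highest signal by far was on Dap12-deficient array 1.

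The activators were split evenly by sign, and most negative regulators had small differences below 0. Of 27 activators 14 were higher and 13 lower, with a median of 0.00. Leaving out Fgr, Lat2, Pik3r1 and Ptpn11, which can act in both directions, the split was 12 and 11 with the same median. Of the 7 negative regulators 2 were higher and 5 lower, with a median of -0.15, where 54.8% of all genes were lower and the median was -0.03. With a common median all 7 were lower (median -0.40, against -0.23 over all genes), and 18 of the 27 activators were lower (median -0.24). The mean deviation of the negative regulators from their 6-array means was 0.15, 0.16 and 0.00 on wild-type arrays 1, 2 and 3. It was -0.16, 0.03 and -0.18 on Dap12-deficient arrays 1, 2 and 3. Dap12-deficient array 2 lay above wild-type array 3, so the groups overlapped. For the activators these means were -0.03, 0.05 and -0.10 against 0.04, 0.12 and -0.08, with no separation. No test was made over either class, since the genes were chosen with results known.

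**Figure D3:**
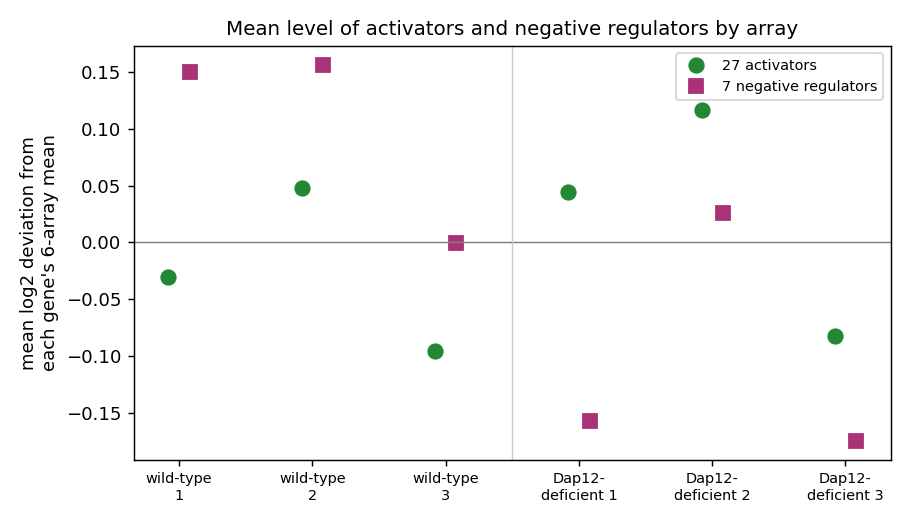
For each array the mean over 27 activators (circles) and 7 negative regulators (squares) of log2(signal + 16) minus each gene's mean over the 6 arrays is drawn. Negative regulators were lowest on Dap12-deficient arrays 1 and 3, and activators followed no grouping.

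The single arrays shaped many of these values. Dap12-deficient array 3 held the lowest signal of all 6 arrays for 12 of the 34 genes and wild-type array 2 the highest for 9. Both of these arrays carry only a single number in the sample title, where every other array carries a pair. The sources used here do not say what the numbers stand for, so these arrays may differ from the others in origin. When the fit allowed for this distinction, 5 members again had an unadjusted p under 0.05, and none passed the adjusted threshold. The median SD within groups was 0.32 on the log2 scale for the 34 genes, against 0.25 for all genes tested. It ran from 0.11 for Bcl10 and 0.12 for Cbl up to 0.53 for Vav2 and 0.55 for Lat.

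Probe sets of the same gene did not always tell the same story. Of 78 probe sets of the 34 genes, 66 were bright enough to test, and 22 genes had several. The sign was shared by all tested probe sets in 11 of these genes and mixed in the other 11. Beyond the genes above, the signs were mixed for Cblb (0.04, -0.32 and 0.41), Fgr (0.18 and -0.15), Src (-0.12 and 0.075) and Lcp2 (-0.22 and 0.033). A second probe set of Ptpn11 (0.34) also had the other sign, but it passed the filter only through the Dap12-deficient arrays (means of 7.68 and 13.9). With only probe sets whose means reached the filter in both groups, 21 genes had several, 11 with a shared sign and 10 with mixed signs. Among the 32 tested probe sets beyond the chosen ones, 6 had an unadjusted p under 0.05, all of them higher in Dap12-deficient cultures: 2 of Malt1 and 1 each of Cbl, Syk, Vav1 and Pik3r1. With both group means at or above the filter there were 5 of 29, without the dimmest of Malt1. Over all probe sets the share with such a p was 10.7%, and 7.05% were higher. The Syk probe set among them was the dimmest of 4, at 10.4, 22.1 and 2.01 in wild type against 42.6, 22.6 and 28.0 in Dap12-deficient cultures (0.82, SE 0.28, adjusted p = 0.365). The remaining 3 of Syk had -0.16 to -0.06. The brightest probe sets of Src and Vav3 are also of a kind that can bind several transcripts.

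**Figure D4:**
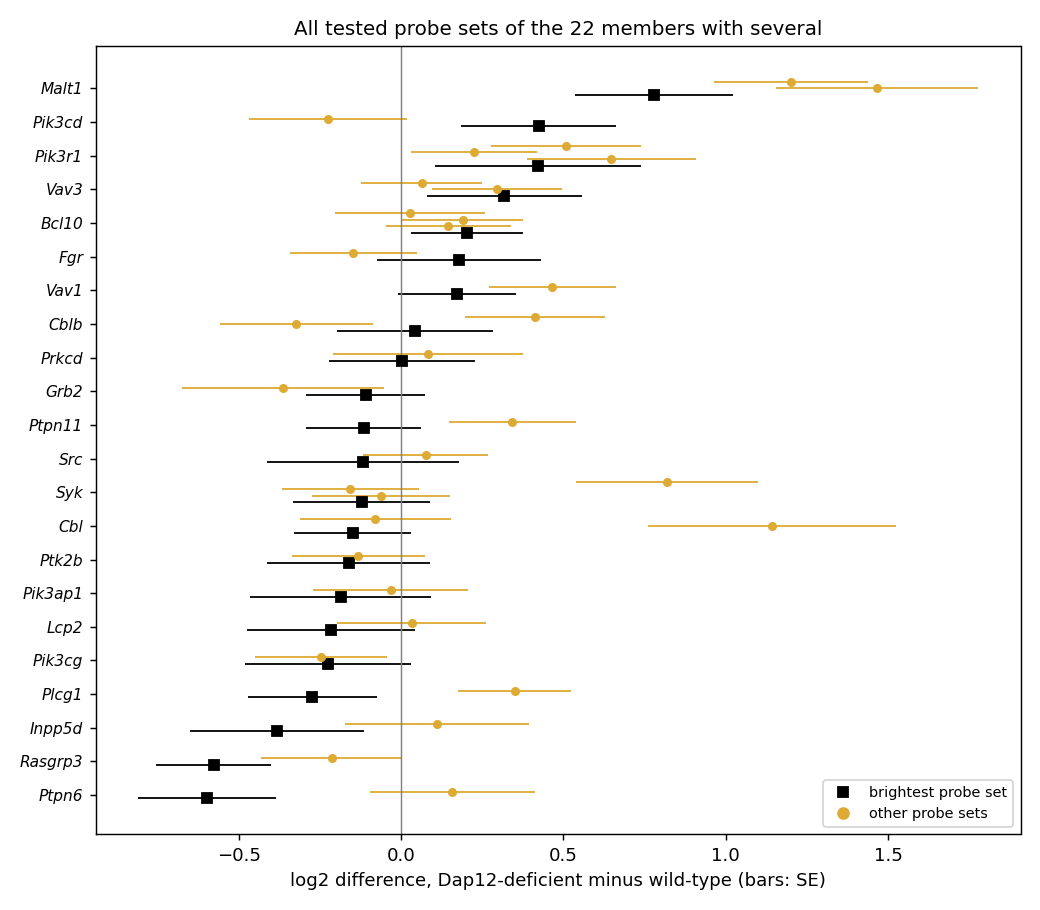
Log2 differences (Dap12-deficient minus wild type) with their SE are drawn for every tested probe set of the 22 genes that had several, the brightest in black squares and the others in yellow circles. The 3 probe sets of Malt1 lie to the right of 0, the dimmest of them tested only through the Dap12-deficient arrays, while those of Ptpn6, Plcg1, Syk and Cbl lie on both sides.

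Promoter sequence is shown for the genes whose groups did not overlap and whose RefSeq start has at least 200 bases before it outside the gene, so that the genes with separated arrays can be seen at their upstream sequence. These were Rasgrp3, Ptpn6, Plcg1 and Bcl10. The windows of Btk and Lat have fewer such bases, and no sequence is shown for Malt1 and Lat2. The bases are from RefSeq, build GRCm38.p6, written 5′ to 3′ on the gene's strand and ending just before the start. For Rasgrp3 they end 36 bases before it (position -36), because the bases after that lie within the annotated gene. Capitals mark GAGGAA, the core bound by the myeloid factor PU.1 and other ETS factors, on either strand.
Rasgrp3, chr17:75435655-75435869, plus strand: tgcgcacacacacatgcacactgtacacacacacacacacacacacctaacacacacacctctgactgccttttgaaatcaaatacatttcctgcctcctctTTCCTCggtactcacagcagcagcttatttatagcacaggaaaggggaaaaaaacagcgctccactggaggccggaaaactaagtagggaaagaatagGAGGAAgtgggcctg
Ptpn6, chr6:124738710-124738959, minus strand: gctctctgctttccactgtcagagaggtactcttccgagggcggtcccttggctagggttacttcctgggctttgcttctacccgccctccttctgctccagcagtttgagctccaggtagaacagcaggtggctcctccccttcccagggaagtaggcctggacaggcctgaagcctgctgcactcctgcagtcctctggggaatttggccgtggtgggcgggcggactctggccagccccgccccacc
Plcg1, chr2:160731060-160731309, plus strand: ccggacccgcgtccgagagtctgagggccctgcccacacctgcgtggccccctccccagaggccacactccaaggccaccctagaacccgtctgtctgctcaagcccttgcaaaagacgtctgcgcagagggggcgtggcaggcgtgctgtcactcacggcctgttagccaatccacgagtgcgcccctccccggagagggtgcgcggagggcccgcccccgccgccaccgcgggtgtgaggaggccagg
Bcl10, chr3:145924012-145924261, plus strand: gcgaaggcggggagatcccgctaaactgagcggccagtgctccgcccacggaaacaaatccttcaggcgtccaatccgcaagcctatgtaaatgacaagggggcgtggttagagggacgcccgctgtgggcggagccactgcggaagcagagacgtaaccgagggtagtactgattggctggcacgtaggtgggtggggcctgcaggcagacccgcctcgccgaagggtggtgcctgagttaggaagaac

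Within 250 bases before the start, the first Rasgrp3 window held GAGGAA 2 times, once on each strand, a second listed start of Rasgrp3 had none, and the windows of Ptpn6, Plcg1 and Bcl10 held none. The letters occurred in 23.3% of 32817 windows of all genes. Promoter entries used here matched 29 of the 34 genes (42 windows), of which 17 windows (40.5%) held them, including those of Syk, Vav1, Inpp5d and Pik3ap1. Entries on 1 chromosome had been left out for the members but not for all genes. The AP-1 motif TGANTCA was in 6.75% of all windows and in 1 of the 42. It lay before Vav3. A consensus of NF-kB was in 4.11% of all windows and in 1 of the 42, before Vav2. The motifs were searched on both strands, and the AP-1 and NF-kB letters were absent from the 4 printed sequences. A match is a description of letters and not a binding site. The share of G and C was 48.4% in the Rasgrp3 sequence and 63.2%, 71.2% and 62.4% in those of Ptpn6, Plcg1 and Bcl10.

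Of 62 other genes of the pathway, listed by function, 46 could be tested, and none passed the threshold. Of 6 tested genes of Src family kinases and their control, 4 were higher and 2 lower. Only 1 had an unadjusted p under 0.05 (16.7%, against 9.63% of all genes). This was Csk, the kinase that holds Src family kinases inactive, at 103, 203 and 161 in wild type against 57.3, 138 and 45.6 in Dap12-deficient cultures (-0.91, SE 0.35, adjusted p = 0.398). Its groups overlapped. Ptprj and Pag1, a receptor phosphatase and the membrane anchor of Csk, had 0.48 (SE 0.35) and 0.31 (SE 0.23).

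Among 24 tested positive components 8 were higher and 16 lower, with a median of -0.08, and none had an unadjusted p under 0.05. Akt1, a kinase downstream of phosphoinositide 3-kinase, had -0.63 (SE 0.31) and did not overlap between the groups. The lowest signal was on Dap12-deficient array 1, at 99.3 against 222 and 282 on the others and 284 to 310 (309.5) in wild type. Pik3r2, another regulatory subunit, had -0.71 (SE 0.35) and Wipf1, a partner of the actin regulator WASP, 0.36 (SE 0.20).

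Of 16 tested negative components 9 were higher and 7 lower, with a median of 0.02. An unadjusted p under 0.05 was found for 1 of the 16 (6.25%, against 9.63% of all genes). The 9 include Ubash3a (means of 7.99 and 13.4), which passed the filter only through the Dap12-deficient arrays, so its direction was set by the filter. Sla, the Src-like adaptor that directs receptors and Syk family kinases to Cbl, had the smallest p of the 46. It gave 492, 393 and 534 in wild type against 303, 221 and 217 in Dap12-deficient cultures. All Dap12-deficient arrays lay below all wild-type arrays, and the mean was 473 ± 72.4 against 247 ± 48.6 (SD, n = 3 each). The difference was -0.90 (SE 0.21, unadjusted p = 0.00153, adjusted p = 0.293), lower in 3 of 3 arrays. Tnfaip3, the A20 enzyme that restrains NF-kB, had 0.39 (SE 0.20) and Dgka, which removes diacylglycerol, -0.37 (SE 0.20). Both kept their groups apart.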

How the data were processed

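Per the labels, Trizol and RNeasy were used for extraction, and an Affymetrix kit amplified the RNA in a pair of rounds before hybridisation. Each deposited file column is a linear signal intensity per probe set, and GCOS (no version) is the software that the submitters' processing notes list. The sources used here do not give its settings. The mean after trimming 2% at each end was 100.0 on every array, so arrays had been scaled. Median signals were 11.9 to 14.0 in wild type and 14.5 to 16.4 in Dap12-deficient cultures. The number of arrays limits precision.

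Of 45101 probe sets, 64 controls were left out. The annotation gave 1 symbol to 34945, several to 932 and none to 9160. Probe sets with a mean signal at or above the 40th percentile (8.51) were tested: 27022. Values were log2(signal + 16), fitted with limma 3.58.1 in R 4.3.3 (eBayes with trend, two-sided, Benjamini-Hochberg over all tested, threshold 0.05), with no covariate. Genes were counted by their brightest probe set (12875 genes), and no 2 arrays held identical values. Replicates were numbered in order of deposit. Steps were tested on simulated data. Plots used matplotlib 3.10.9 in Python 3.11.15.

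Members, roles, lists and alternatives were chosen with earlier results of these data known. Named genes were all members, Tyrobp, and the 3 with the smallest p of each pathway list. Members with an unadjusted p under 0.05 or separate groups, and Syk, Zap70, Plcg2 and Inpp5d, are given by array. Other array values, the printed promoters and the motifs were chosen after values were seen.

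Of the remaining marker lists, 4 of 7 B cell markers were tested, 2 higher and 2 lower (Ighm -1.33, Cd22 0.35), with summed signals of 250.3 to 348 in wild type and 183 to 316 in Dap12-deficient cultures. Pax5, counted as higher, passed the filter only through the Dap12-deficient arrays (means of 8.345 and 12.42). Of 6 granulocyte markers 2 were tested, Mpo (0.31) and S100a8 (0.27), which passed the filter only through the Dap12-deficient arrays. S100a9, below the filter, had means of 7.30 and 1.80. The sums were 22.7 to 47.8 and 21.2 to 43.5. Of 7 fibroblast markers 5 were tested, 4 higher and 1 lower (Postn -1.03, Col3a1 0.49), with sums of 113 to 212 and 115 to 156. Col1a1, counted as higher, also passed the filter only through the Dap12-deficient arrays (means of 6.63 and 11.0). In the other lists the smallest p belonged to Gpr34 (-0.71) and Trem2 (-0.48), Mog (-1.88) and Mobp (-2.34), Slc1a2 (0.58) and Slc1a3 (0.63), Thy1 (0.51) and Cd28 (0.22), and Kit (0.48). Thy1 was tested only through the Dap12-deficient arrays.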

Additional observations from a re-analysis of the deposited data

How the results depend on the processing

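No member passed the adjusted threshold under any of 19 alternatives (lowest adjusted p 0.121). 10 of the 34 genes kept the sign of their difference in all 19, and 24 turned in at least 1. Probe sets past the threshold numbered 2, with 5 for a common median, 3 without the intensity trend, 4 for array weights, 11 for a term for sex-linked signal, 4 for 1 probe set per gene, and 2 to 172 when 1 array was left out. Members at an unadjusted p under 0.05 numbered 5, with 2 under the sex term, 4 with a common median and with the mean of all probe sets, and 2 to 6 when 1 array was left out. Under the sex term the 2 were Lcp2 (-1.84) and Src (1.57), and none of the original 5 was among them. With a common median the 4 were Rasgrp3, Ptpn6, Btk and Inpp5d, and Malt1 and Lat were no longer included. The median of the activators (0.00) was -0.24 with a common median, -0.21 with the sex term and -0.078 to 0.15 without 1 array. That of the negative regulators (-0.15) was -0.40, -0.53 and -0.25 to -0.12. The sex term is nearly confounded with genotype, which the standard errors show (0.51 for Rasgrp3 against 0.18 without it), and the cause of the other changes was not tested. No paired analysis was possible because the groups share no numbers in the sample titles.

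The sign turned with a common median for Bcl10 (-0.048), Cblb (-0.17), Dok2 (-0.12), Plcg2 (-0.12), Prkcd (-0.24), Vav1 (-0.077) and Vav2 (-0.19). Quantile normalization turned Dok2 (-0.071) and Vav2 (-0.0040), and array weights turned Dok2 (-0.10) and Src (0.094). The mean of all probe sets turned Cbl (0.30), Pik3cd (-0.013), Plcg1 (0.037), Ptpn11 (0.10), Syk (0.12) and Vav2 (-0.054). With the sex term the values that turned were Bcl10 -0.10, Blnk -1.14, Cbl 0.25, Dok2 -0.58, Dok3 0.15, Pik3r1 -0.97, Plcg1 0.21, Prkcd -0.21, Sh3bp2 -0.40, Src 1.57, Syk 0.69, Tec -0.33 and Vav2 -1.37. When 1 array was left out the sign turned for 14 genes, with ranges of -0.14 to 0.21 for Cblb, -0.13 to 0.26 for Dok2, -0.33 to 0.033 for Dok3, -0.041 to 0.37 for Fgr and -0.43 to 0.031 for Lcp2. They were -0.43 to 0.10 for Pik3ap1, -0.39 to 0.022 for Pik3cg, -0.0058 to 0.31 for Plcg2, -0.20 to 0.19 for Prkcd and -0.37 to 0.087 for Ptk2b. The remaining ranges were -0.35 to 0.19 for Src, -0.23 to 0.063 for Syk, -0.27 to 0.34 for Vav2 and -0.34 to 0.17 for Zap70.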
